A study of Mus musculus with 6 samples.

Results

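miR-132 and miR-212 are neighbouring microRNAs (miRNAs, short RNAs that guide repression of matching messenger RNAs) processed from a single noncoding transcript. Here mmu-miR-132 and mmu-miR-212 were followed in small RNA libraries of N2A cells. Their members were found by name, as every mouse-named entry of miR-132 or miR-212 in any arm or length variant, and numbered 4 of the 1080 entries listed per library. These were miR-132-3p, miR-132-5p, miR-212-3p and miR-212-5p, so each hairpin gave 1 entry per arm. N2A (Neuro2A) is an established mouse neuroblastoma line, labelled as neuroblast. The 3 si-circCpsf6 libraries came from cells given an siRNA against circCpsf6, a circular RNA, and the 3 si-NC libraries from cells given a control siRNA, each at 100 nM. The labels give no time after transfection and do not say whether replicates were separate cultures, so the p-values given here rest on a spread among libraries that could be technical. How far circCpsf6 was silenced was not analysed here.

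In neurons the transcript of miR-132 and miR-212 is induced by synaptic activity and by the growth factor BDNF through the transcription factor CREB. The processed miR-132 promotes the growth of dendrites and spines. Each hairpin is cut into a 5p and a 3p strand, of which usually a single one is kept in the silencing complex. The bases 2 to 8 of a mature miRNA, its seed, do most of the target pairing.

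The mature strands are shown because the 3p strands of both miRNAs share a seed while the 5p strands do not. Sequences are from RefSeq (GRCm38.p6), 5′ to 3′, with the seed in capitals, and all 4 members matched by name.
mmu-miR-132-3p: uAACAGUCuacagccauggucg
mmu-miR-212-3p: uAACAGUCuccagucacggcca
mmu-miR-132-5p: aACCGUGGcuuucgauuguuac
mmu-miR-212-5p: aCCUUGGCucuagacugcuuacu

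The 3p strands share the seed AACAGUC. They are identical over their first 9 bases and at 17 of 22 positions. Counted from 1 at the 5′ end, with the miR-132-3p base first, they differ by A10C, C14U, U17C, U20C and G22A. Of 1679 RefSeq mature miRNA names searched, 2 carry that seed, and both are members, miR-132-3p and miR-212-3p. How the authors assigned reads between similar strands is not given in the sources used here.

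2 of the entries are length variants by their names. The suffix L-1R+1 of the miR-132-5p entry was read as 1 base fewer at the 5′ end and 1 more at the 3′ end, and the suffix R+1 of the miR-212-3p entry as 1 base more at the 3′ end. Read in this way and taken from the RefSeq hairpins, the strands are as follows, again with bases 2 to 8 in capitals.
mmu-miR-132-5p_L-1R+1: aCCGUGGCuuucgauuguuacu
mmu-miR-212-3p_R+1: uAACAGUCuccagucacggccac
The missing first base moves the seed of the miR-132-5p entry to CCGUGGC, against ACCGUGG in the RefSeq strand, and no RefSeq mature miRNA in the table carries CCGUGGC at bases 2 to 8. The added base of miR-212-3p leaves its seed as it was.

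Both hairpins lie on the plus strand of mouse chromosome 11, Mir212 at chr11:75173388-75173478 and Mir132 at chr11:75173682-75173747 (RefSeq, GRCm38.p6, which is not the authors' build mm9). The hairpins are shown with both mature strands in capitals, Mir212 first as it is transcribed first.
Mir212: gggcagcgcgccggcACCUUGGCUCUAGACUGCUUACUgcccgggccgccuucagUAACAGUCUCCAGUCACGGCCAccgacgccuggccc
Mir132: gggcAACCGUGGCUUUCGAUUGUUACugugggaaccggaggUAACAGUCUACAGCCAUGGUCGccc
There are 203 bases between them. GENCODE M21 places both in intron 1 of the 3-exon noncoding gene 1700016P03Rik, an intron of 1380 bases. Hic1, an upstream gene on the minus strand, has its nearer edge 3868 bases before Mir212. The G and C content is 69.2% in the Mir212 hairpin and 57.6% in the Mir132 hairpin.

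Values throughout are the authors' normalized read numbers, which were deposited as whole numbers. The read depth behind them is unknown and no counting interval can be given. Library totals ran from 2874209 to 3268351 in si-circCpsf6 and from 2570449 to 3045133 in si-NC. The number of entries with a value of 1 or more was 747 to 880 in si-circCpsf6 and 842 and 866 in si-NC replicates 2 and 1, but 578 in si-NC replicate 3, which stood apart. Of the miRNAs listed as neuronal markers, all 5 were above 0 in every library, mostly through miR-7a, and they held 7.86% to 11.6% of the summed values in si-circCpsf6 and 4.92% to 8.71% in si-NC. Of 8 miRNAs listed as markers of other cell types, 6 had an entry, and together they held 0.135% to 0.234% in si-circCpsf6 and 0.147% to 0.241% in si-NC, most of it the endothelial miR-126a. The blood miRNAs miR-142a and miR-223 had none. The liver miRNA miR-122 was listed at 0 in every library but si-NC replicate 2, where it was at 5. Summed over its entries, miR-126a stood at 4061 to 6634 over all libraries. Of the neuronal markers, miR-7a (89818 to 365691) and miR-218 (12752 to 35802) lay above it in every library. The neuronal markers miR-124 (190 to 725), miR-9 (90 to 192) and miR-375 (96 to 313) lay below it in every library.

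All 4 strands were detected in every library, and miR-132-3p was the most abundant in each. In bulk RNA, fewer expressing cells and less RNA per cell cannot be told apart. miR-132-3p, the strand kept from its hairpin in most tissues, was listed at 3641, 3927 and 2897 normalized reads in si-circCpsf6 replicates 1, 2 and 3, against 2312, 2507 and 2393 in si-NC replicates 1, 2 and 3. The groups did not overlap: the lowest si-circCpsf6 library lay above the highest si-NC library. Its mean was 3488 ± 532 in si-circCpsf6 and 2404 ± 98.0 in si-NC (SD, n = 3 each), a ratio of means of 1.45. Among 916 entries tested by limma on log2(value + 1), its log2 change was 0.53 (SE 0.24, 95% interval -0.032 to 1.08), with an unadjusted p of 0.0614 and a Benjamini-Hochberg adjusted p of 0.735, so it did not pass. Its unadjusted p ranked 73rd of 916. Without si-NC replicate 3, which is described above as standing apart, the log2 change was 0.52 (limma adjusted p = 0.322).

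The 5p strand of the same hairpin, usually the less abundant one, was listed at 733, 1141 and 878 normalized reads in si-circCpsf6 and at 655, 831 and 517 in si-NC. The groups overlapped, since si-NC replicate 2 lay above si-circCpsf6 replicate 1. miR-132-5p averaged 917 ± 207 in si-circCpsf6 and 668 ± 157 in si-NC (log2 change 0.46, SE 0.32, limma adjusted p = 0.801), and with si-NC replicate 3 left out the log2 change was 0.29.

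miR-212-3p, which carries the seed of miR-132-3p, was listed at 1242, 2075 and 940 normalized reads in si-circCpsf6 and at 1303, 1059 and 525 in si-NC. The high value in si-circCpsf6 replicate 2 and the low value in si-NC replicate 3 set the difference in means, and the other libraries lay between 940 and 1303 in both groups. Its means were 1419 ± 588 in si-circCpsf6 and 962 ± 398 in si-NC (log2 change 0.58, SE 0.44, limma adjusted p = 0.841). The log2 change was 0.27 with si-circCpsf6 replicate 2 left out, and 0.19 with si-NC replicate 3 left out.

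miR-212-5p was listed at 872, 1659 and 758 normalized reads in si-circCpsf6 and at 1421, 1448 and 452 in si-NC. The highest value of the 6 thus came from si-circCpsf6 replicate 2 and the lowest from si-NC replicate 3, and the groups overlapped. The means were 1096 ± 491 in si-circCpsf6 and 1107 ± 567 in si-NC (log2 change 0.079, SE 0.52, 95% interval -1.11 to 1.27, limma adjusted p = 0.992). Its direction turned with single libraries: leaving out si-circCpsf6 replicate 2 gave a log2 change of -0.26, leaving out si-NC replicate 3 gave -0.48, and it was -0.00094 with library totals made equal. In the authors' deposited table, the log2 fold of the means was 0.54 for miR-132-3p with a p of 0.0671, 0.46 for miR-132-5p, 0.56 for miR-212-3p and -0.01 for miR-212-5p.

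**Figure D1:**
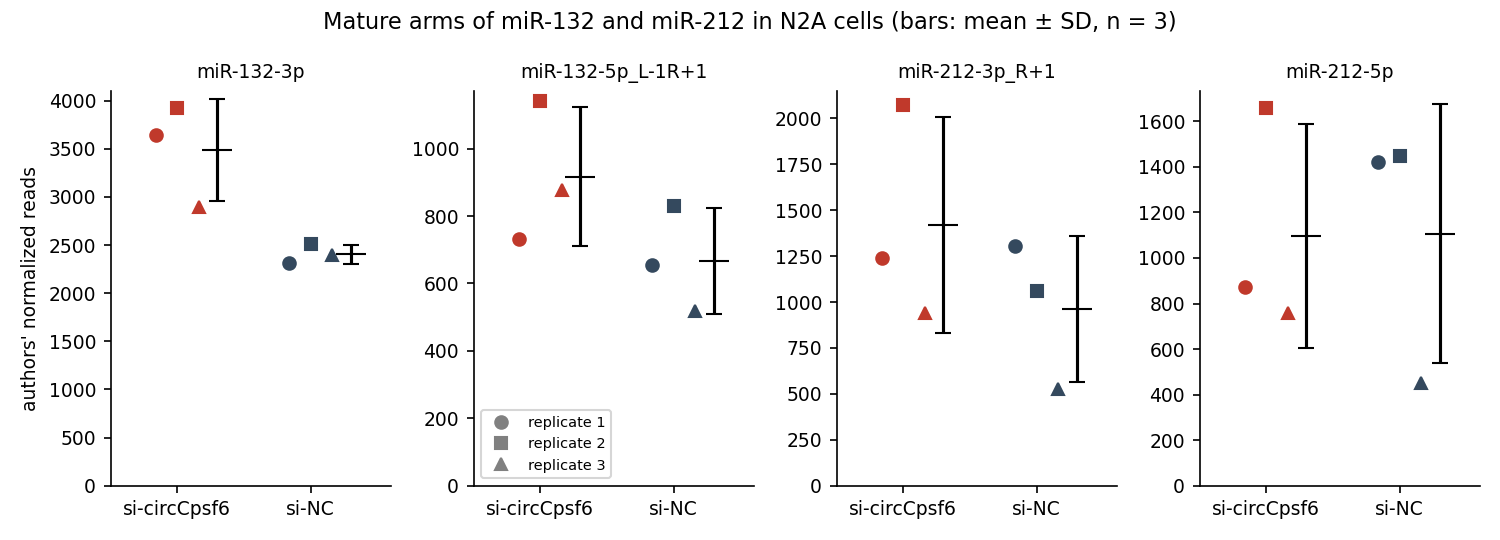
Authors' normalized reads (vertical axes from 0, each on its own scale) of the 4 mature strands in the 3 si-circCpsf6 and 3 si-NC libraries, with the replicate number as the symbol and the mean ± SD as bars. The si-circCpsf6 libraries lie above the si-NC libraries for miR-132-3p, at 2897 or more against 2507 or less, and overlap with them for the other 3 strands.

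None of the 4 strands passed the test across all entries, and neither did any other entry: 0 of 916 had a limma adjusted p under 0.05 (0%), and 57 had an unadjusted p under 0.05 (6.22%), none of them a member. Groups that did not overlap were found for 107 entries (11.7%), of which 62 were higher in si-circCpsf6 (6.77% of those tested), against 1 of 4 members. With 4 members, 1 such entry does not set them apart from the rest. The median log2 change over all 916 entries was 0.086, and 510 of them had a positive log2 change (55.7%), against 4 of 4 members, although the sign for miR-212-5p turned with single libraries as given above.

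**Figure D2:**
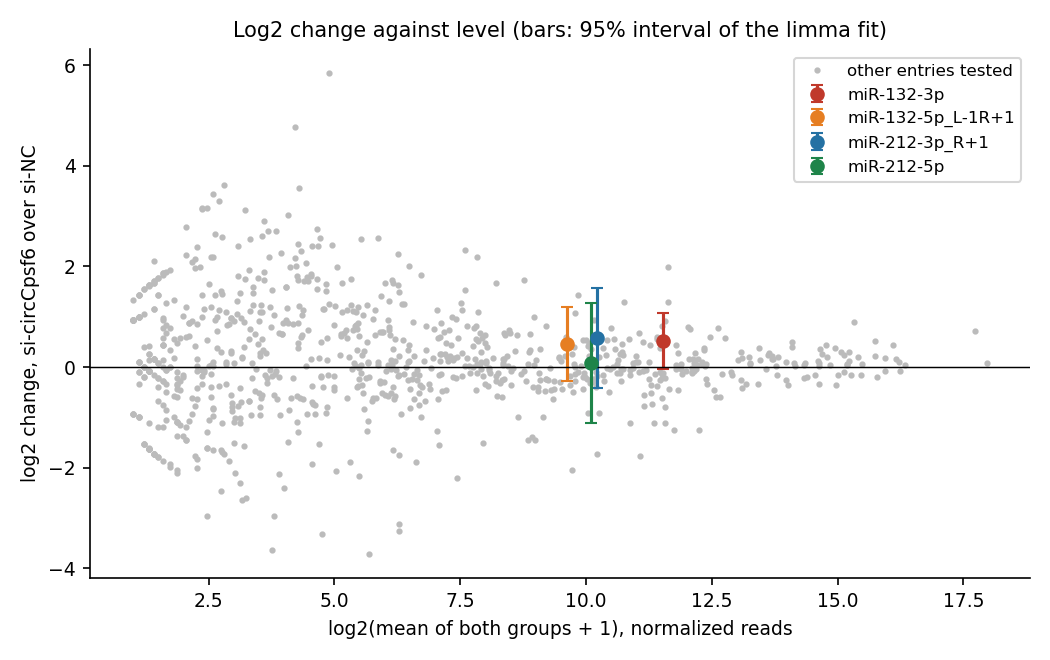
Log2 change of si-circCpsf6 over si-NC (vertical axis) against the log2 of the mean normalized reads plus 1 (horizontal axis) for the 916 entries tested, with the 4 strands in colour and bars for the 95% interval of the limma fit. All 4 intervals include 0, that of miR-132-3p (-0.032 to 1.08) by the least.

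The strands differed in how much they varied between replicates. The SD of miR-132-3p was 15.2% of its mean in si-circCpsf6 and 4.08% in si-NC. That of miR-132-5p was 22.5% in si-circCpsf6 and 23.6% in si-NC. For miR-212-3p it was 41.4% in si-circCpsf6 and 41.3% in si-NC, and for miR-212-5p 44.7% in si-circCpsf6 and 51.3% in si-NC. The highest value was thus 1.70 times the lowest over all 6 libraries for miR-132-3p, 2.21 times for miR-132-5p, 3.95 times for miR-212-3p and 3.67 times for miR-212-5p. All 4 strands were highest in si-circCpsf6 replicate 2, the library with the largest total, and all but miR-132-3p were lowest in si-NC replicate 3, the library with the smallest total. On the log2(value + 1) scale, si-NC replicate 3 departed from the mean of the other si-NC libraries by -0.0087 for miR-132-3p, -0.51 for miR-132-5p, -1.16 for miR-212-3p and -1.66 for miR-212-5p.

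Divided by each library's own total, miR-132-3p stood at 1267, 1202 and 1006 parts in 1000000 of the summed values in si-circCpsf6 and at 759, 857 and 931 in si-NC, which still did not overlap. With totals made equal in this way its log2 change was 0.45 (limma adjusted p = 0.773). The other 3 strands overlapped on that scale too. Together the 4 strands held 0.226%, 0.269% and 0.190% of the summed values in si-circCpsf6 and 0.187%, 0.200% and 0.151% in si-NC, with means of 0.228 ± 0.0397% in si-circCpsf6 and 0.179 ± 0.0251% in si-NC. The ranges overlapped, since si-circCpsf6 replicate 3 lay below si-NC replicate 2.

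Ratios within a library do not depend on scaling if each library was scaled by a single factor. The normalization method is not given, so whether it was is unknown. The ratios were compared for both hairpins by two-sided exact permutation tests over libraries, which with 3 against 3 cannot give a p under 0.1. The miR-132 hairpin favoured its 3p strand in every library. Its 3p to 5p ratio was 4.97, 3.44 and 3.30 in si-circCpsf6 and 3.53, 3.02 and 4.63 in si-NC, a difference of 0.065 in mean log2 ratio (exact permutation p = 0.7). These values overlapped, and the sign of the difference turned without si-circCpsf6 replicate 1 (-0.12) or without si-NC replicate 2 (-0.075).

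The miR-212 hairpin gave its strands in near-equal amounts. Its 3p to 5p ratio was 1.42, 1.25 and 1.24 in si-circCpsf6 and 0.917, 0.731 and 1.16 in si-NC. The 3p strand was thus the more abundant in all si-circCpsf6 libraries and in si-NC replicate 3, and the 5p strand in si-NC replicates 1 and 2, and the groups did not overlap. The mean log2 ratio was 0.38 ± 0.11 in si-circCpsf6 and -0.12 ± 0.33 in si-NC (SD, n = 3 each), a difference of 0.50 (exact permutation p = 0.1, the smallest possible, and 0.3 after Benjamini-Hochberg adjustment over the 3 ratios tested). Leaving out a single library gave differences from 0.34 to 0.67, the largest of them without si-NC replicate 3. For 150 mouse hairpins whose strands both had a mean of 10 or more, the 3p to 5p ratio did not overlap between the groups for 13 (8.67%), of which 9 were higher in si-circCpsf6. By the size of the difference, miR-212 ranked 38th and miR-132 127th of 150, where the median size was 0.31.

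The seed-sharing 3p strands kept no fixed proportion. There were 0.341, 0.528 and 0.324 miR-212-3p reads per miR-132-3p read in si-circCpsf6 and 0.564, 0.422 and 0.219 in si-NC. The difference in mean log2 ratio was 0.054 (exact permutation p = 1), and si-NC replicates 1 and 3 were the extremes of all 6 libraries. Leaving out si-circCpsf6 replicate 2 turned it to -0.17, and leaving out si-NC replicate 3 turned it to -0.33. miR-132-3p alone made up 56.1%, 44.6% and 52.9% of the 4 strands' sum in si-circCpsf6 and 40.6%, 42.9% and 61.6% in si-NC.

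**Figure D3:**
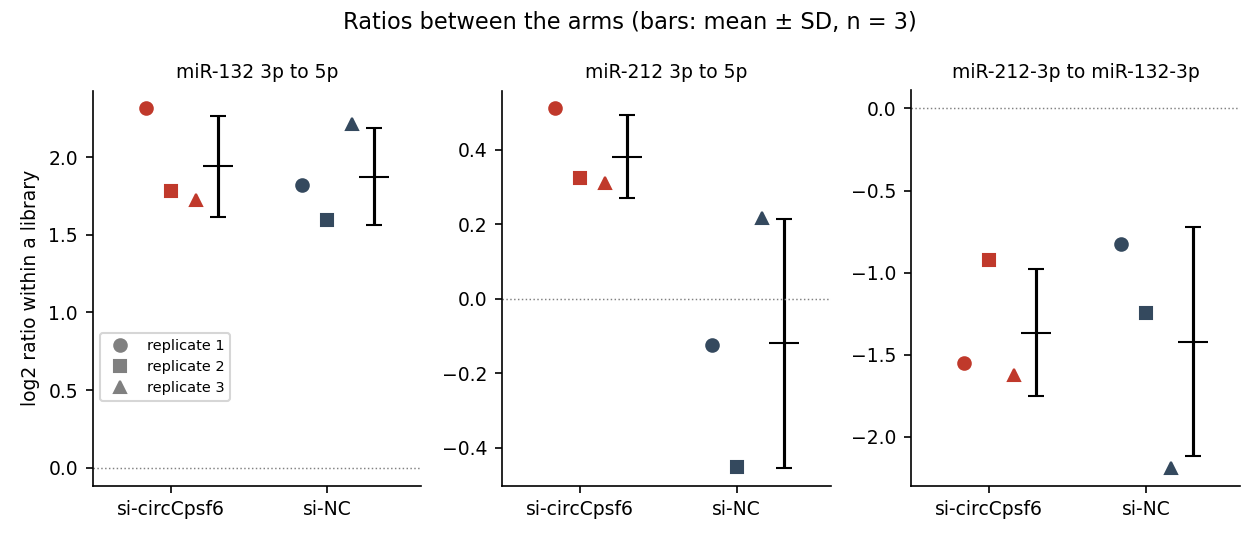
Log2 of the ratio between strands (vertical axes, no pseudocount) in each of the 3 si-circCpsf6 and 3 si-NC libraries, for the 3p to 5p ratio of each hairpin and for miR-212-3p to miR-132-3p, with the mean ± SD as bars and a dotted line where the strands are equal. For miR-212 the si-circCpsf6 libraries lie above all si-NC libraries (ratios of 1.24 or more against 1.16 or less), and the other ratios overlap.

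The 1700016P03Rik intron is not the only miRNA source nearby. Of 3 other RefSeq hairpins within 1000000 bases of Mir132, a window chosen after the values were seen, Mir22 had entries in the tables. miR-22-3p, a broadly expressed miRNA whose hairpin begins 290034 bases from that of Mir132, was listed at 19793, 24336 and 11213 normalized reads in si-circCpsf6 and at 13065, 22782 and 17561 in si-NC. It overlapped between the groups (log2 change 0.016, limma adjusted p = 0.992). miR-22-5p averaged 292 ± 25.6 in si-circCpsf6 and 371 ± 182 in si-NC.

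To show how close the pattern of miR-132-3p was to others, its log2(value + 1) over the 6 libraries was correlated with that of the 342 other mouse-named entries with a mean of 100 or more. The 5 highest Pearson coefficients, given as a description of entries that share libraries and scaling, were 0.944 for miR-700-5p, 0.887 for miR-708-5p, 0.867 for miR-3099-3p, 0.866 for miR-322-5p and 0.864 for miR-598-3p. Only miR-700-5p exceeded 0.9 among the 342. It was listed at 1314, 1241 and 1041 normalized reads in si-circCpsf6 and at 904, 846 and 926 in si-NC (log2 change 0.42, limma adjusted p = 0.736). miR-708-5p, which lies in an intron of Tenm4, had 3858, 8288 and 2802 in si-circCpsf6 and 936, 2548 and 606 in si-NC, a larger log2 change of 1.98 (limma adjusted p = 0.364). miR-322-5p, the mouse counterpart of human miR-424, had 7977, 9441 and 7282 in si-circCpsf6 and 4700, 5161 and 6858 in si-NC (log2 change 0.57).

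miR-3099-3p stood at 406, 609 and 317 in si-circCpsf6 and at 195, 166 and 73 in si-NC, whereas miR-598-3p hardly varied, with means of 5420 ± 125 in si-circCpsf6 and 5206 ± 64.1 in si-NC. All 5 had groups that did not overlap, which the choice by likeness favours. None of the strands that share the transcript was among the closest: the coefficient with miR-132-3p was 0.691 for miR-132-5p, 0.649 for miR-212-3p and 0.253 for miR-212-5p. The miR-212 strands were closer to each other, at 0.872.

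**Figure D4:**
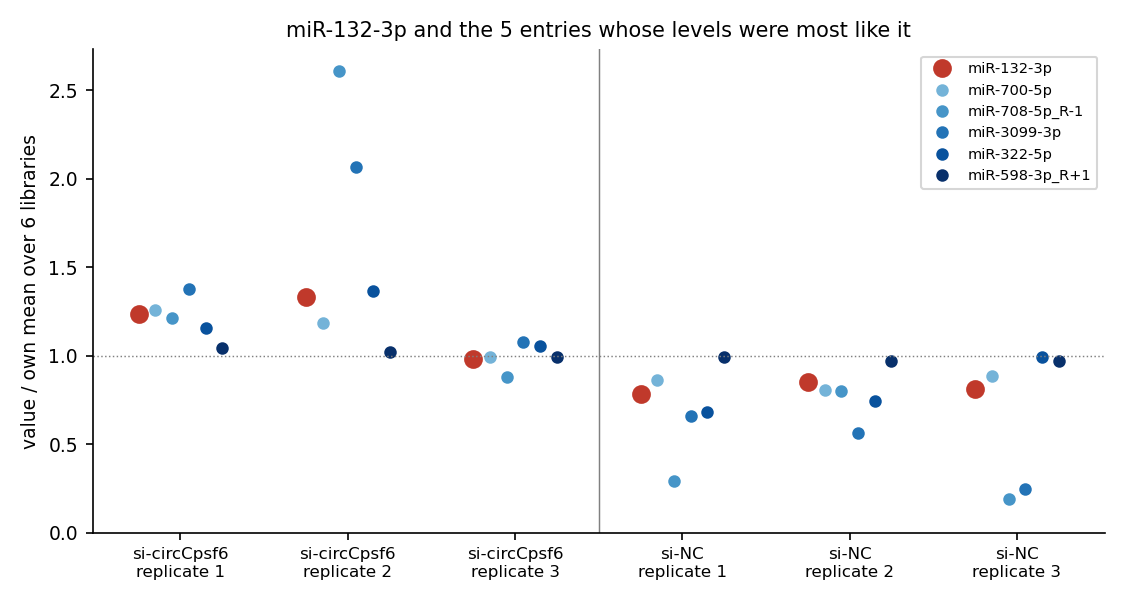
Value in each library divided by the entry's own mean over the 6 libraries (vertical axis) for miR-132-3p (large points) and the 5 entries with the highest Pearson coefficient with it, si-circCpsf6 libraries to the left of the line and si-NC libraries to its right. miR-708-5p and miR-3099-3p spread far more than miR-132-3p, and miR-598-3p far less.

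Entries at the level of miR-132-3p show how much miRNAs of that abundance varied. The 5 nearest to it in mean log2 level were miR-106b-3p, miR-146a-5p, miR-128-3p, miR-196a-5p and miR-15b-3p. miR-15b-3p, from a cluster linked to cell cycle control, was listed at 3227, 3597 and 4319 normalized reads in si-circCpsf6 and at 1787, 1941 and 2675 in si-NC (log2 change 0.81, limma adjusted p = 0.482). miR-146a-5p, an inflammation-linked miRNA, differed the other way, at 2213 ± 427 in si-circCpsf6 and 3826 ± 801 in si-NC (log2 change -0.79, limma adjusted p = 0.553). miR-128-3p, a brain-enriched miRNA, was at 2785 ± 232 in si-circCpsf6 and 3044 ± 68.7 in si-NC, and the Hox cluster miRNA miR-196a-5p at 2715 ± 161 in si-circCpsf6 and 3150 ± 103 in si-NC. miR-106b-3p, from an intron of Mcm7, averaged 2779 ± 309 in si-circCpsf6 and 3159 ± 1154 in si-NC. Of these 5, 3 had groups that did not overlap, miR-15b-3p higher and miR-146a-5p and miR-196a-5p lower in si-circCpsf6. Over all 916 entries tested, groups did not overlap for 107 (11.7%), and 5 entries are too few to give the share at this level. Among the 342 entries, 54 (15.8%) had a larger positive log2 change than miR-132-3p, and 18 had a smaller residual SD.

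Other miRNAs regulated by neuronal activity or acting at synapses were taken from a list of 12, which gave 25 tested entries. By limma, 0 of 25 had an adjusted p under 0.05 in either direction, as did 0 of all 916 entries tested. An unadjusted p under 0.05 was found for 2, miR-381-3p and miR-138-5p, beside 6.22% of all entries tested. Of the 25, 15 had a positive log2 change, 9 a negative one and 1 was at 0, with a median of 0.65 beside 0.086 over all entries tested, where 55.7% were positive. The groups did not overlap for 5, beside 11.7% of all entries tested. Of these, 4 were higher in si-circCpsf6 (6.77% of all entries) and 1, miR-9-5p, was lower. The 4 were miR-134-5p, miR-379-3p, miR-381-3p and miR-485-3p, of which miR-379-3p was singled out after its values were seen, and all come from the imprinted Dlk1-Dio3 cluster. Without si-NC replicate 2 the median was 0.21 and without si-circCpsf6 replicate 3 it was 0.38. The list is not made of independent miRNAs, since miR-329 comes from that cluster too.

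miR-138-5p, which limits dendritic spine size by lowering the depalmitoylating enzyme Lypla1, was the second most abundant miRNA of the list, at 9257, 6776 and 7435 normalized reads in si-circCpsf6 and 3989, 3287 and 6930 in si-NC (log2 change 0.79, limma adjusted p = 0.720). The groups overlapped through si-NC replicate 3. miR-134-5p, which restrains spine growth through Limk1, was at 104, 93 and 128 in si-circCpsf6 and 89, 26 and 23 in si-NC. miR-381-3p was at 292, 201 and 264 in si-circCpsf6 and at 165, 101 and 85 in si-NC (log2 change 1.14, limma adjusted p = 0.576).

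From the same cluster, miR-379-5p averaged 239 ± 31.6 in si-circCpsf6 and 156 ± 103 in si-NC. miR-329-3p averaged 45 ± 20.1 in si-circCpsf6 and 26 ± 5.2 in si-NC, and miR-485-3p 28.7 ± 13.3 in si-circCpsf6 and 8 ± 9.17 in si-NC. The si-NC values of miR-485-3p were 18, 6 and 0, the 0 in replicate 3, the library with the fewest entries detected (578). Neuron-specific miR-124-3p averaged 467 ± 221 in si-circCpsf6 and 319 ± 219 in si-NC, and miR-188-5p 134 ± 79.3 in si-circCpsf6 and 89 ± 86.6 in si-NC. Means lower in si-circCpsf6 belonged to miR-9-5p, a miRNA of neural progenitors (128 ± 38.8 in si-circCpsf6 and 169 ± 13.3 in si-NC), the longer of the miR-219a-5p entries, miR-219a-5p_R+2 (325 ± 120 in si-circCpsf6 and 402 ± 322 in si-NC), miR-181a-5p (907 ± 113 in si-circCpsf6 and 1047 ± 177 in si-NC) and the abundant miR-191-5p (22445 ± 3592 in si-circCpsf6 and 25349 ± 6700 in si-NC). In level, miR-132-3p lay between miR-138-5p and miR-181a-5p in both groups.

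**Figure D5:**
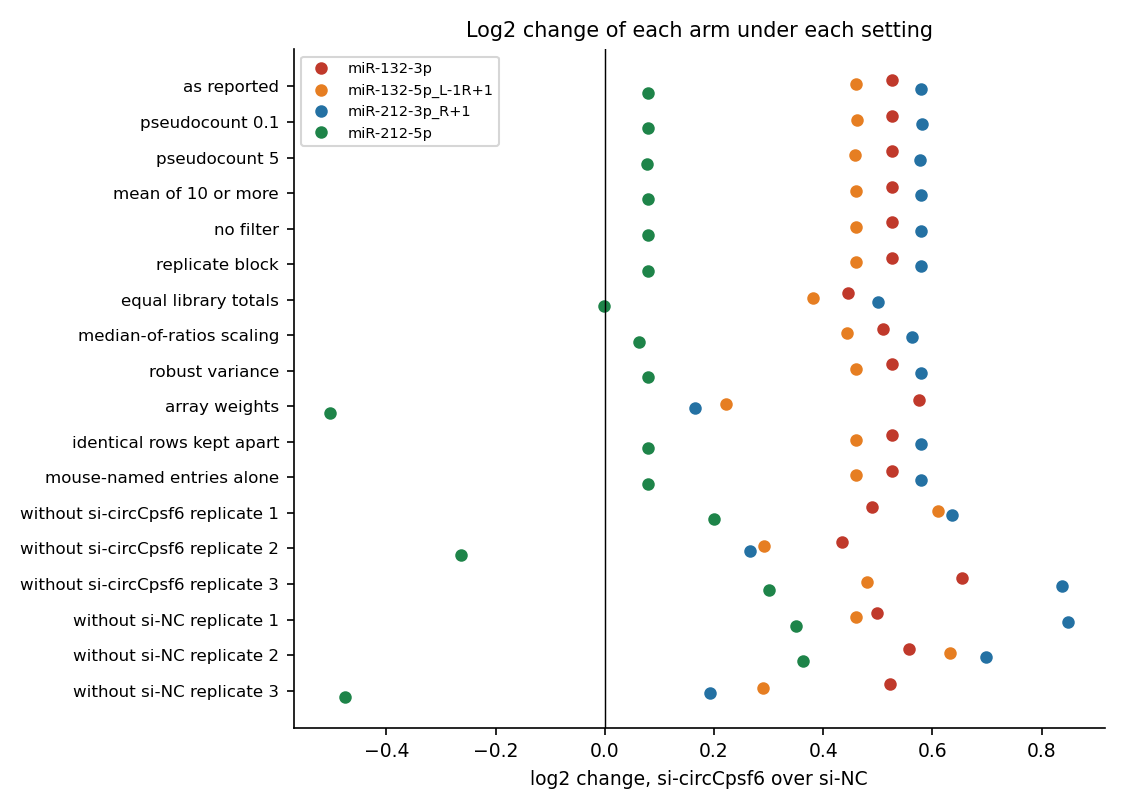
Log2 change of si-circCpsf6 over si-NC (horizontal axis) for each of the 4 strands, as reported and under each of 17 alternative settings (rows). miR-132-3p stays between 0.43 and 0.65, miR-212-3p spreads from 0.17 to 0.85, and miR-212-5p lies on both sides of 0.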

How the data were processed

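Small RNA libraries (TruSeq small RNA kit, 1 ug of total RNA, per the labels' protocols) from 6 samples were grouped by their titles. The genome build was mm9, per the submitters' processing notes. For the aligner, the counter and the normalization, the method is not given in the sources used. The values analysed were normalized by the authors, per the file headers. They were deposited as whole numbers and are treated as a score, not as raw reads. The authors' deposited fold change, its log2 and p-value were used only where credited. Merging copies among 178 repeated rows reduced 1080 entries to 1046. Library totals, the shares and scaling that use them, and the counts of detected entries were taken over all 1080 entries, copies included. The merged entries averaging at least 1 (916) were tested with limma 3.58.1 (trended variance, R 4.3.3) on log2(value + 1), group as the only term. The threshold was a Benjamini-Hochberg adjusted p under 0.05. Changes are on that scale, where adding 1 pulls those of low entries toward 0. They can still exceed the log2 ratio of the means where a library lies at 0. For miR-485-3p the log2 change was 2.45, with means of 28.7 in si-circCpsf6 and 8 in si-NC. limma and permutation steps were tested on simulated data. Ratios are printed per library without a pseudocount, and their mean log2 values and tests used a pseudocount of 1. The members, lists and settings were chosen with earlier results of these data known. Named entries were all members, the 5 most like miR-132-3p, the 5 nearest in level, and the most abundant entry of each listed miRNA. Also named were the cell type markers and, after the values were seen, the neighbouring miR-22 strands and miR-379-3p. Python 3.11.15, scipy 1.17.1 and pandas 2.3.3 were used.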

Additional observations from a re-analysis of the deposited data

How the results depend on the processing

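Under 17 alternatives (pseudocounts, filters, scalings, variance models, identical rows kept apart, mouse-named entries alone, each library left out, the replicate block), miR-132-3p, miR-132-5p and miR-212-3p kept a positive log2 change and none of the 4 strands passed. The adjusted p of miR-132-3p ran from 0.106 (array weights) to 0.979. With 1 library left out, log2 changes ran from 0.43 to 0.65 for miR-132-3p, 0.29 to 0.63 for miR-132-5p, 0.19 to 0.85 for miR-212-3p and -0.48 to 0.36 for miR-212-5p, and that of miR-212-5p was also -0.50 with array weights and -0.00094 with equal library totals. With 1 library left out, the log2 ratio difference ran from -0.12 to 0.23 for miR-132 3p to 5p, 0.34 to 0.67 for miR-212 3p to 5p and -0.33 to 0.35 for miR-212-3p to miR-132-3p, and the share difference from 0.0286 to 0.0682 percentage points. The count of entries past the threshold was 31 with array weights, where si-NC replicate 3 had a weight of 0.146, and 0 to 4 with 1 library left out, the 4 without si-NC replicate 3; the cause was not tested. Entries with an unadjusted p under 0.05 numbered 210 with array weights and 127 without si-NC replicate 3, against 57. The activity list, whose alternatives were chosen after seeing the data, had medians from 0.21 to 0.89 with 1 library left out. Same-numbered libraries correlated in their deviations from the group means at 0.047, 0.479 and 0.4 for replicates 1, 2 and 3. Differently numbered libraries correlated at -0.441 to 0.184. The labels do not say whether the numbers pair the libraries, and these few values cannot settle it. With the replicate block, 0 entries passed, 87 had an unadjusted p under 0.05, and miR-132-3p had an adjusted p of 0.442. The unadjusted limma p of miR-132-3p, 0.0614 as reported, fell under 0.05 in some settings and stayed above it in the rest. It was 0.0339 with the replicate block, 0.0097 with array weights and 0.0408 without si-NC replicate 3. It was 0.0247 without si-circCpsf6 replicate 3 and 0.0460 with a pseudocount of 0.1. A sign-flip test of the miR-212 ratio over the numbers gave an exact p of 0.25, the smallest possible with 3 pairs. edgeR's TMM scaling was not run, since the values are not counts, and summing the variants of a strand gives the same values, since each strand had 1 entry. The unknown depth is a limit on all values.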
